A study of Saccharomyces cerevisiae with 6 samples.

Results

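The yeast genes described here encode the enzymes that add acetyl groups to histones, the enzymes that remove them, and the subunits that work beside both. The list holds 60 genes of the SAGA, NuA4, NuA3, SAS, Hat1, Rpd3, Hda1 and Set3 complexes, the HST deacetylases and the corepressor pair Tup1 and Cyc8. Members were found by matching each gene symbol to the array's probe-to-gene table, which gave 71 probe sets for 59 of the 60 genes among the 5656 genes with a probe set of their own. SUS1, a small subunit of the SAGA deubiquitinase module, had no probe set listed under its symbol and was not analysed here. Messenger RNA was measured on 6 Affymetrix arrays of Saccharomyces cerevisiae, 3 from a wild-type strain and 3 from the histone H3 K4,79R strain, in which lysines 4 and 79 of histone H3 are replaced by arginine. Both strains were grown in the rich medium YPD and harvested in mid-log phase at an OD600 between 0.5 and 0.7. The strain background, the mating type and the way the mutant histone is expressed are not stated in the labels. They also leave unstated whether samples were grown as independent cultures, so the p-values below refer to variation among these 6 samples, part of which may be technical. The amino acid replacement itself is not measured by the arrays, so the strain labels could not be checked from the data. The question was which mRNA levels differ between the strains.

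Acetylation of lysines on the histone tails weakens the hold of histones on DNA and makes binding places for proteins that open chromatin, so acetyltransferases mostly act as coactivators and deacetylases mostly as corepressors. The complexes studied here find their places on the genome partly by reading histone methylation. Methylated lysine 4 of H3 is bound by Sgf29 in SAGA, by Yng1 in NuA3, by Yng2 in NuA4, by Pho23 in the large Rpd3 complex and by Set3. Arginine at that residue cannot carry the methyl mark these subunits bind.

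Signals are in the linear units of the deposited files. Differences are on the scale of log2(signal + 3.605), mutant minus wild type, with the moderated standard error (SE) of limma, and a gene is called at a Benjamini-Hochberg adjusted p under 0.05 over all tested genes. Median signals were 34.1 to 36.8 on the wild-type arrays and 31.8 to 42.9 on the mutant arrays. Mutant array 1 stood apart from the other arrays of its group: its log2 signals correlated at 0.975 and 0.979 with mutant arrays 2 and 3, against 0.988 between those arrays. The signal ratio of the 3′ to the 5′ probe set of the actin gene was 1.00 on mutant array 1 and 1.498 to 1.64 on the other 5 arrays. The same ratio for SPT15, the gene of the TATA-binding protein, grouped the arrays otherwise: it was 5.71 on mutant array 1, within the wild-type range of 5.02 to 6.15, and 2.79 and 3.35 on mutant arrays 2 and 3. Values without mutant array 1 are given where leaving it out changed a sign, a call or a value by much.

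None of the 57 members tested was called, against 4.26% of all 5380 tested genes (2.81% higher and 1.45% lower in the mutant). At an unadjusted limma p under 0.05 the count was 10 of 57 members, or 17.5%, against 22.2% of all tested genes. These were SPT8, ESA1, YNG2, SAS4, DEP1, RXT3, SAP30, HDA3, HOS3 and HST2, at least 1 each from SAGA, NuA4, SAS, Rpd3, Hda1 and the HST group. The largest difference belonged to the deacetylase gene HOS3 at 0.89 ± 0.22 (SE) on the log2 scale (adjusted p = 0.0678), and the lowest to the acetyltransferase gene RTT109 at -0.54 ± 0.25 (adjusted p = 0.25). The median log2 difference was 0.0073 over the members and 0.04 over all tested genes, with 29 members above 0 and 28 below. The members' absolute log2 difference had a median of 0.206, beside 0.209 for all tested genes, and their median SE was 0.160, beside 0.162.

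**Figure D1:**
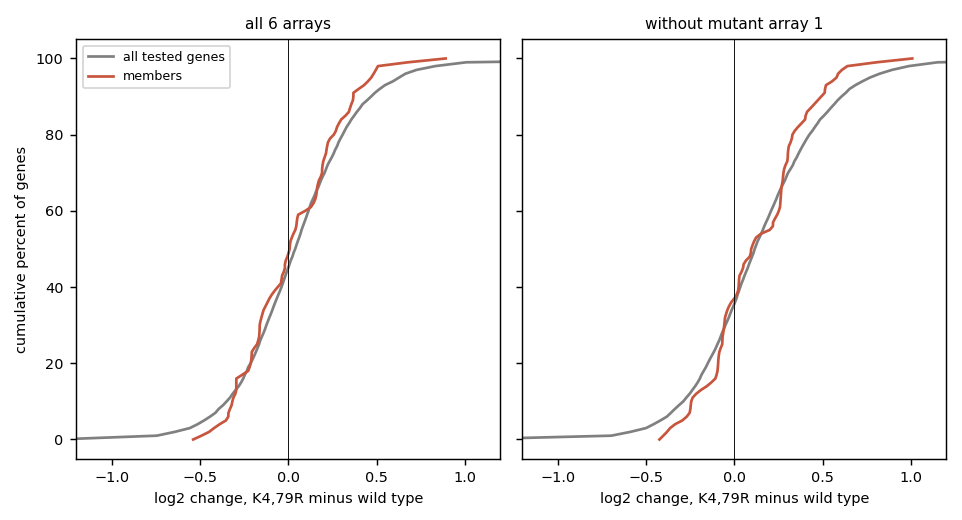
Cumulative percent of genes (vertical axis) against the log2 difference between K4,79R and wild type (horizontal axis), for the 57 members in red and all 5380 tested genes in grey, with all 6 arrays (left) and without mutant array 1 (right). The curves lie close together near the median, and the members span -0.54 to 0.89 with all arrays.

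The width of the intervals sets what these arrays could show. For 54 of the 57 members the 95% interval of the difference lay within a 2-fold change in either direction. The exceptions were SAS3, RTT109 and HOS3. For 24 members the interval also lay within a 1.5-fold change, and for the others it reached past that size in at least 1 direction. Every tested member was measured on the same arrays, yet the SE of the difference ran from 0.099 to 0.320 over the members. The widths therefore differed from gene to gene. In cultures measured as a whole, a lower mRNA level in every cell and a smaller share of cells expressing a gene cannot be told apart.

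**Figure D2:**
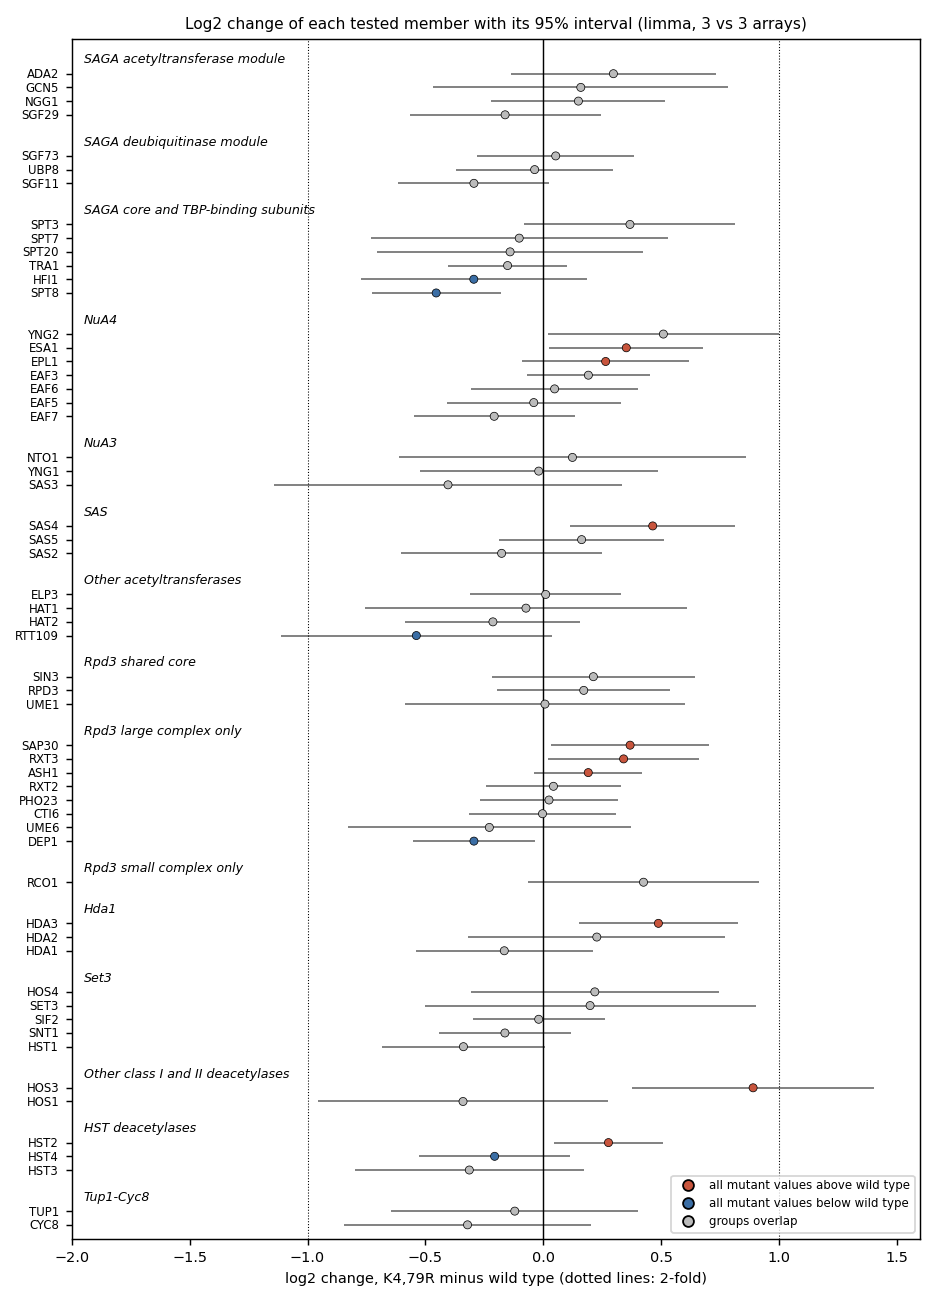
Log2 difference, K4,79R minus wild type, of each of the 57 tested members (points) with its 95% interval (lines), grouped by complex; a subunit of 2 complexes is drawn once. Red and blue points mark members whose 3 mutant values all lay above or below the wild-type values, and HOS3 has the difference farthest from 0.

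For 14 members, or 24.6%, the 3 mutant values did not overlap the 3 wild-type values, against 28.8% of all tested genes. Of these, 9 stood higher in the mutant and 5 lower, where 16.7% and 12.2% of all tested genes did. The members so separated came from both the acetyltransferase side (3 higher, 3 lower) and the deacetylase and corepressor side (6 higher, 2 lower). The plot of their signals shows each array.

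**Figure D3:**
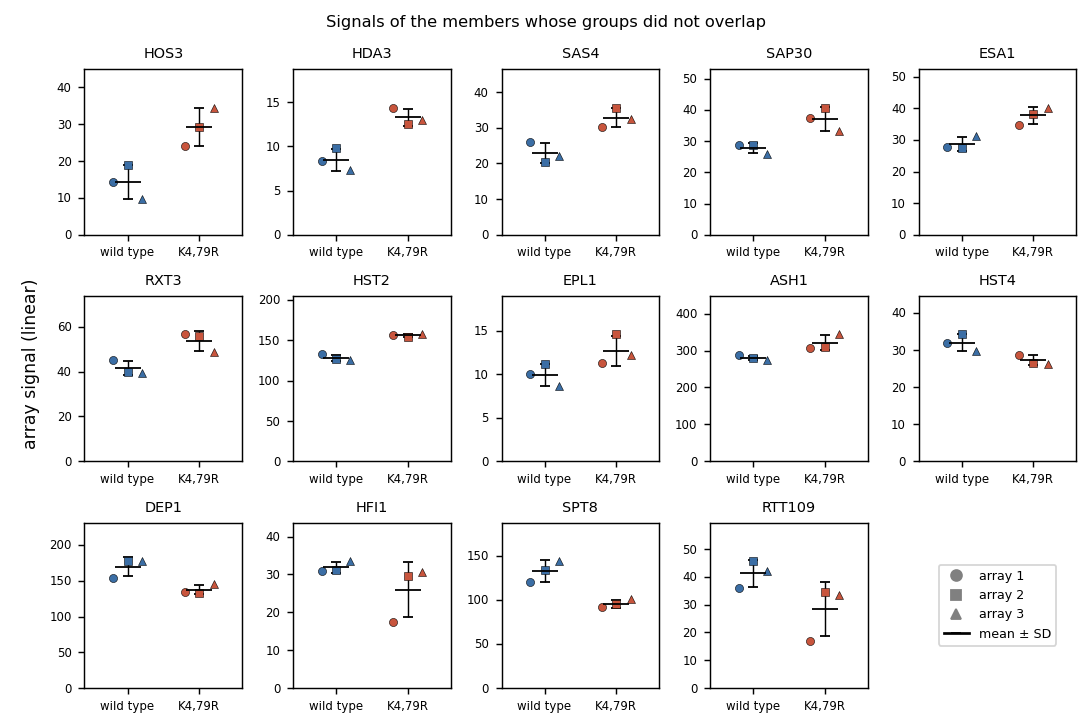
Linear array signal (vertical axis, from 0) of the 14 members whose groups did not overlap, with wild-type arrays in blue and K4,79R arrays in red. Symbols give the array number, and bars give the mean ± SD of 3 arrays. In HFI1 and RTT109 mutant array 1 lies far below the other mutant arrays, while in HST2 and SPT8 the 3 mutant arrays lie close together.

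In the acetyltransferase module of SAGA, the coactivator complex that acetylates H3 at promoters, none of 4 members was called, and the median difference was 0.15. GCN5 (YGR252W), the catalytic subunit, read 42.6, 39.1 and 21.3 on the wild-type arrays and 29.0, 48.1 and 37.05 on the mutant arrays, both in order of array number as in all such lists below. The groups overlapped, wild-type array 3 was the lowest of the 6, and the difference was 0.16 ± 0.27 with a 95% interval from -0.47 to 0.78. ADA2 and NGG1, whose products bind Gcn5 and widen what it can acetylate, stood at 0.30 ± 0.19 and 0.15 ± 0.16. SGF29, whose product reads methylated lysine 4, was at -0.16 ± 0.18.

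The deubiquitinase module removes ubiquitin from histone H2B. Its enzyme gene UBP8 read 24.5, 20.9 and 20.6 in wild type and 20.8, 22.9 and 20.2 in the mutant, values that overlapped throughout, with a difference of -0.04 ± 0.14. SGF73, which ties the module to SAGA, was at 0.05 ± 0.14. SGF11 had the lowest difference of the module, -0.29 ± 0.14 (adjusted p = 0.26), and its groups overlapped because mutant array 1, at 97.9, lay above wild-type array 1, at 96.0.

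Among the 6 structural and TBP-binding subunits of SAGA, 5 differences were below 0 and the median was -0.15, which became 0.02 without mutant array 1. SPT8 (YLR055C), which contacts the TATA-binding protein, read 120.5, 133.6 and 144.4 in wild type and 91.7, 95.1 and 100.6 in the mutant. All mutant values lay below all wild-type values, with a difference of -0.45 ± 0.12, but the adjusted p of 0.0777 missed the threshold. SPT3, the partner of SPT8 in contacting TBP, stood on the other side at 0.37 ± 0.19, and its groups overlapped, with 13.6, 18.6 and 20.5 in wild type and 19.6, 28.8 and 22.7 in the mutant. HFI1, a scaffold subunit, read 30.8, 31.2 and 33.6 in wild type and 17.5, 29.7 and 30.75 in the mutant. Its groups did not overlap, yet mutant arrays 2 and 3 lay just under the wild-type values, and the difference moved from -0.29 ± 0.21 to -0.07 ± 0.12 without mutant array 1. SPT7 and SPT20, further scaffold subunits, were at -0.10 ± 0.27 and -0.14 ± 0.24, and both turned positive, 0.24 and 0.11, without that array.

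TRA1, the large subunit of SAGA and NuA4 that binds activators, was the only member with more than 1 probe set. Of its 13 probe sets, 8 had a mean below the filter on low signals, with single values from 0.1 to 6.27. The brightest read 156.6, 145.8 and 161.1 in wild type and 149.8, 133.3 and 133.5 in the mutant, a difference of -0.15 ± 0.11 with overlapping groups. The other 4 above the filter carry a name suffix that marks shared probes. They lay at 0.15, 0.13, -0.07 and 0.10 in the fit of all probe sets, so the probe sets disagreed in sign and none was called.

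NuA4 acetylates histones H4 and H2A, and its catalytic gene ESA1 is essential for growth. None of its 8 members was called, 5 differences were above 0, and the median was 0.12. ESA1 (YOR244W) read 27.8, 27.3 and 31.3 in wild type and 34.8, 38.3 and 40.3 in the mutant. The groups did not overlap, and the difference was 0.35 ± 0.14 (adjusted p = 0.198). EPL1, the scaffold that joins Esa1 to nucleosomes, read 10, 11.2 and 8.7 against 11.25, 14.6 and 12.3, also without overlap but with the lowest mutant value barely above the highest wild-type value, at 0.26 ± 0.15. YNG2, whose product binds Esa1 and methylated lysine 4, had the highest difference of the complex, 0.51 ± 0.21 (adjusted p = 0.212), with 34.9, 27.2 and 19.7 in wild type and 34.9, 46.5 and 37.8 in the mutant. The overlap came from wild-type array 1 alone, which lay level with mutant array 1. EAF3, a chromodomain subunit shared with the small Rpd3 complex, was at 0.19 ± 0.11, EAF6, shared with NuA3, at 0.05 ± 0.15, EAF5 at -0.04 ± 0.16 and EAF7 at -0.21 ± 0.15.

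NuA3 acetylates H3, and the difference of its enzyme gene came mainly from 1 array. SAS3 (YBL052C), the catalytic gene, read 52.1, 52.0 and 60.0 in wild type and 21.2, 57.8 and 52.2 in the mutant. Only mutant array 1 was low, and the difference of -0.40 ± 0.32 became 0.0087 ± 0.12 without it. NTO1, a scaffold subunit with PHD fingers, was at 0.12 ± 0.32 with 18.0 on mutant array 1 and 52.9 and 37.9 on the others, and stood at 0.51 ± 0.17 without array 1 (adjusted p = 0.0624). YNG1 was at -0.02 ± 0.22. For none of the 4 NuA3 members did the sign hold under all left-out arrays and all scalings.

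The SAS complex acetylates H4 and counters the spread of silent chromatin from chromosome ends. SAS4 (YDR181C), which its enzyme needs for activity, read 26.0, 20.5 and 22.0 in wild type and 30.3, 35.7 and 32.4 in the mutant, a difference of 0.46 ± 0.15 (adjusted p = 0.129). The groups did not overlap. SAS2, the enzyme, read 20.1, 24.4 and 23.9 against 17.1, 17.2 and 25.8, with mutant array 3 above every wild-type array, and lay at -0.18 ± 0.19. SAS5 was at 0.16 ± 0.15, so the 3 subunits stood on both sides of 0.

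The other acetyltransferases act away from promoters. RTT109 (YLL002W), which acetylates newly made H3 during replication, read 36.0, 45.8 and 42.1 in wild type and 17.1, 34.5 and 33.5 in the mutant. All mutant values lay below wild type, and mutant array 1 lay farthest below. Without it the difference moved from -0.54 to -0.25 ± 0.14 (adjusted p = 0.225). HAT1, which acetylates H4 before it is put into chromatin, was at -0.07 ± 0.30, with 31.1, 20.7 and 21.5 in wild type and 12.8, 31.1 and 28.3 in the mutant. Its groups overlapped, and mutant array 1 was again the lowest of the 6. Its partner gene HAT2 was at -0.21 ± 0.16. ELP3, the catalytic gene of Elongator, which modifies transfer RNAs, read 65.6, 58.7 and 68.3 against 57.0, 68.9 and 68.5, with a difference of 0.01 ± 0.14 and a 95% interval from -0.31 to 0.33.

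Rpd3 is the main deacetylase of yeast promoters, within a large complex brought by DNA-binding repressors and a small one that acts inside transcribed genes. The 3 subunits common to both had differences above 0, with a median of 0.17 and no call. RPD3 (YNL330C) itself read 82.0, 86.7 and 66.0 in wild type and 75.6, 100.5 and 89.7 in the mutant, which overlapped, at 0.17 ± 0.16. SIN3, the scaffold, was at 0.21 ± 0.19, and UME1 at 0.01 ± 0.26, a sign that turned under each of the 3 other scalings between arrays.

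Of 8 tested subunits found only in the large complex, 5 differences were above 0 and 3 below, with a median of 0.03. SAP30 read 28.9, 28.8 and 25.9 in wild type and 37.35, 40.8 and 33.2 in the mutant, a difference of 0.37 ± 0.15 (adjusted p = 0.192). RXT3 read 45.3, 39.9 and 39.5 against 56.6, 55.7 and 48.55, at 0.34 ± 0.14 (adjusted p = 0.205). In both genes the mutant values lay above all wild-type values. ASH1, a repressor that daughter cells receive and that keeps the HO gene off there, was separated too, with 286.6, 278.5 and 275.4 in wild type and 307.9, 310.0 and 344.3 in the mutant, but by only 0.19 ± 0.10. DEP1 was separated in the other direction, with 154.4, 177.9 and 176.9 against 134.7, 132.8 and 145.2, a difference of -0.29 ± 0.11 (adjusted p = 0.176). UME6, the DNA-binding repressor of early meiotic genes, stood at -0.23 ± 0.26. PHO23 (0.02 ± 0.13), RXT2 (0.04 ± 0.12) and CTI6 (-0.0031 ± 0.14) lay near 0. SDS3, needed to hold the complex together, lay below the filter on low signals and was not tested; it read 7.3, 6.4 and 5.9 in wild type and 6.64, 4.80 and 6.19 in the mutant.

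In the small Rpd3 complex, which deacetylates histones behind RNA polymerase II, RCO1 (YMR075W) stood at 0.43 ± 0.21 (adjusted p = 0.286). Its signals were low, with 6.5, 7.6 and 8.8 in wild type and 7.47, 12.9 and 15.0 in the mutant. Mutant array 1 lay within the wild-type range while the other mutant arrays lay above it.

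The Hda1 complex deacetylates H3 and H2B, and its 3 subunit genes stood on both sides of 0. HDA3 read 8.3, 9.8 and 7.3 in wild type and 14.4, 12.5 and 12.9 in the mutant. The groups did not overlap, and the difference was 0.49 ± 0.15 with an adjusted p of 0.104. HDA1 (YNL021W), the enzyme, read 28.2, 30.5 and 35.2 against 23.2, 30.65 and 28.9, at -0.17 ± 0.16 with overlapping groups. HDA2, the partner of HDA3, was at 0.23 ± 0.24, its wild-type values spanning 5.4 to 12.5.

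The Set3 complex is brought to genes by lysine 4 methylation and deacetylates histones near their starts. None of its 5 tested members was called, and the median was -0.02. SET3 (YKR029C) read 36.8, 50.3 and 41.6 in wild type and 27.9, 67.3 and 63.15 in the mutant, so that mutant array 1 was the lowest and the other mutant arrays the highest of the 6. The difference was 0.20 ± 0.31 with all arrays. SNT1 stood at -0.16 ± 0.12, SIF2 at -0.02 ± 0.12 and HOS4 at 0.22 ± 0.23. The lowest of the 5 was HST1 at -0.34 ± 0.15, which is described with the HST genes below. HOS2, the main deacetylase of the complex, was below the filter and not tested, with 6.7, 7.1 and 4.5 in wild type and 8.12, 7.09 and 5.31 in the mutant.

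HOS3 (YPL116W) encodes a deacetylase that works without the subunits of the other complexes. It read 14.4, 19.0 and 9.8 in wild type, 14.4 ± 4.60 (SD, n = 3), and 24.2, 29.2 and 34.5 in the mutant, 29.3 ± 5.17. All mutant values exceeded all wild-type values. The offset makes the 1.85-fold difference on the log2(signal + offset) scale smaller than the ratio of these mean signals. The adjusted p of 0.0678 missed the threshold with the arrays as deposited. It passed with quantile normalization (log2 0.77), with a common median (0.80), after dividing out the factor each mutant array carries (0.84) and without mutant array 1 (1.01), settings in which 6.84%, 6.65%, 6.47% and 20.9% of all tested genes were called. Over the alternatives in which it was tested its adjusted p ranged from 0.020 to 0.206. A filter that removes the dimmest 40% of probe sets left it out. HOS1, a deacetylase known for acting on cohesin, read 8.5, 10.3 and 10.5 in wild type and 3.50, 6.98 and 11.9 in the mutant, which overlapped, at -0.34 ± 0.27. Mutant array 1 was the lowest, and without it the difference was -0.06 ± 0.19.

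The HST genes encode relatives of the silencing deacetylase Sir2, which use NAD. HST1, which represses middle meiotic and NAD synthesis genes with Sum1, read 364.6, 378.3 and 410.4 in wild type and 309.1, 246.4 and 364.7 in the mutant. Mutant array 3 lay just above wild-type array 1, so the groups overlapped narrowly, and the difference was -0.34 ± 0.15 (adjusted p = 0.232). HST2, a mostly cytoplasmic relative, was separated upward with little spread, at 132.7, 126.6 and 125.7 against 156.9, 154.1 and 157.6, a difference of 0.28 ± 0.10 (adjusted p = 0.165). HST3 and HST4 remove the acetyl group that Rtt109 adds. HST4 read 32.0, 34.3 and 29.7 against 28.8, 26.6 and 26.3, separated downward at -0.21 ± 0.14. HST3 was at -0.31 ± 0.21, with 33.0, 29.8 and 27.6 in wild type and 16.3, 26.5 and 29.5 in the mutant, overlapping through mutant array 3. Without mutant array 1, the lowest of the 6, HST3 stood at -0.09 ± 0.14. The sign of all 4 HST genes held under every left-out array and every scaling, 1 above and 3 below 0, with no call with all arrays.

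Tup1 and Cyc8 form a corepressor that recruits deacetylases to many regulated genes. TUP1 (YCR084C) read 313.6, 223.5 and 251.2 in wild type and 167.9, 261.0 and 311.0 in the mutant, overlapping almost fully, at -0.12 ± 0.23. CYC8 (YBR112C) read 154.6, 144.8 and 174.6 against 83.7, 148.8 and 157.6, at -0.32 ± 0.23. In both genes mutant array 1 was the lowest of the 6, and without it the differences were 0.13 ± 0.15 and -0.04 ± 0.11.

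**Figure D4:**
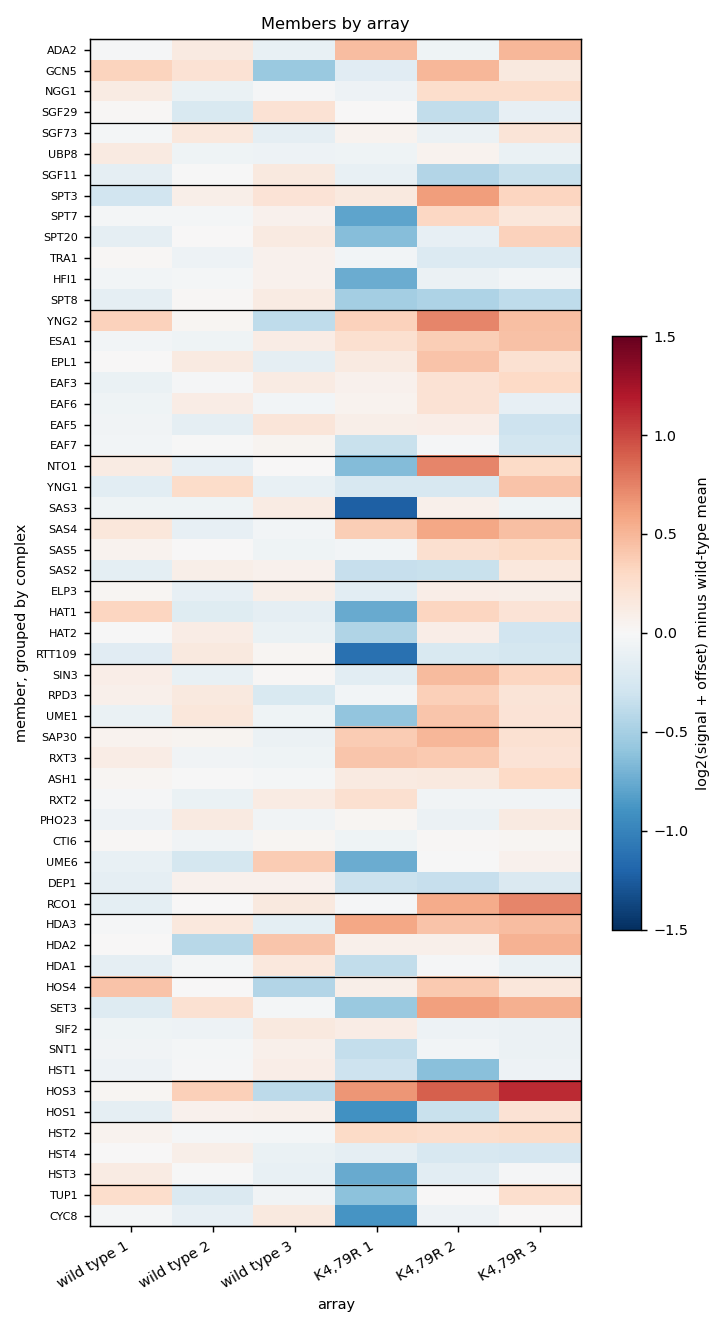
Each tested member (rows, grouped by complex, with black lines between complexes) on each of the 6 arrays (columns), coloured by log2(signal + offset) minus the wild-type mean of that gene. K4,79R array 1 holds the darkest blue cells, among them SAS3, RTT109 and CYC8, and HOS3 is red on all 3 mutant arrays.

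The low values of mutant array 1 recurred across complexes. In 10 of the 57 members, or 17.5%, this array lay more than 0.5 on the log2 scale below the lowest of the other 5 arrays, as it did in 7.77% of all tested genes. These members were SPT7, SPT20 and HFI1 of SAGA, SAS3 and NTO1 of NuA3, RTT109, HAT1, HOS1, HST3 and CYC8. No other array lay so far above or below the rest in any member. Among the mutant arrays, array 1 was the lowest in 39 of 57 members, beside 64.6% of all tested genes. Median differences of the members from the wild-type mean were -0.07, 0.08 and 0.17 on mutant arrays 1, 2 and 3, where all tested genes had -0.11, 0.14 and 0.10. Whether RNA quality had a part in this was not tested.

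Without mutant array 1, 5 of the 57 members (8.77%) were called in limma, against 20.9% of all tested genes (16.1% higher and 4.83% lower). HOS3 at 1.01 ± 0.22 (adjusted p = 0.020), RCO1 at 0.65 ± 0.16 (adjusted p = 0.0264), SET3 at 0.58 ± 0.15 (adjusted p = 0.0328) and SAS4 at 0.51 ± 0.14 (adjusted p = 0.0417) were higher in the mutant, and SPT8 at -0.42 ± 0.11 (adjusted p = 0.0331) was lower. HOS3, SAS4 and SPT8 had separated groups with all 6 arrays too. RCO1 and SET3 overlapped because of the array left out. Uncalled members moved as well: GCN5 then stood at 0.32, NGG1 at 0.26, RPD3 at 0.28 and SIN3 at 0.40, while HAT2 stood at -0.10, SAS2 at -0.09, HDA1 at -0.06, SNT1 at -0.07 and UME6 at 0.03. The median over members was then 0.10, beside 0.115 over all tested genes, so 36 members were above 0.

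**Figure D5:**
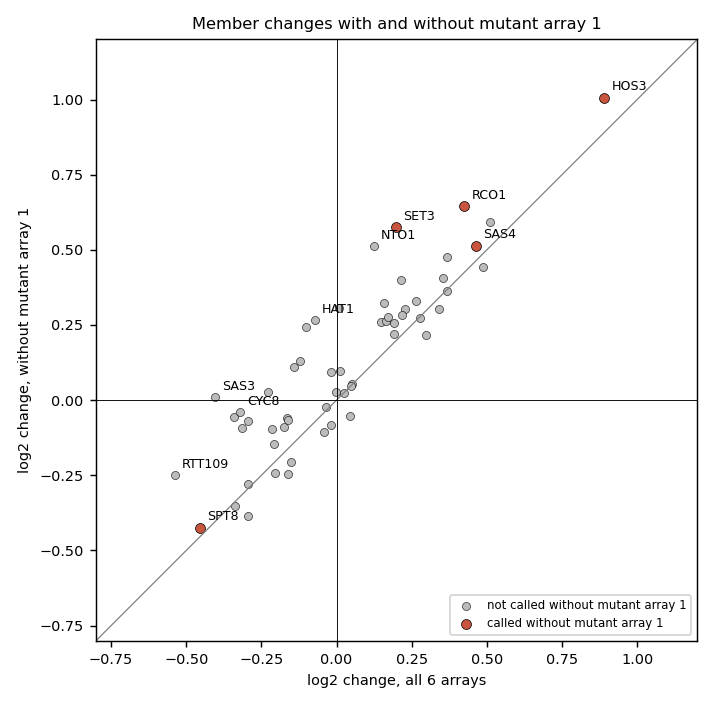
Log2 difference of each of the 57 tested members with all 6 arrays (horizontal axis) and without mutant array 1 (vertical axis); the diagonal marks equal values. The 5 members called without that array are red, and SAS3, NTO1 and HAT1 lie far above the diagonal.

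The 5 members named above for binding methylated lysine 4 were compared side by side, a grouping made after the values were known. It may not hold every member whose product reads this mark. Their differences with all arrays were -0.16 for SGF29, -0.02 for YNG1, 0.51 for YNG2, 0.02 for PHO23 and 0.20 for SET3. None was called with all arrays, against 4.26% of all tested genes. SET3 alone was called without mutant array 1, against 20.9% of all tested genes.

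Compared by side, the 29 tested genes of the acetyltransferase complexes had a median of -0.04 with 13 above 0, and the 27 of the deacetylase and corepressor complexes a median of 0.02 with 15 above 0. EAF3, which belongs to both, was left out of this count. Without mutant array 1 these medians were 0.09 and 0.13, so the first changed its sign. By complex, medians ran from -0.26 for the 4 HST genes to 0.31 for the 2 genes EAF3 and RCO1 of the small Rpd3 complex, with SAS at 0.16, NuA3 at 0.01 and Hda1 at 0.23. Without mutant array 1 they were -0.17 for the HST genes, 0.45 for the small Rpd3 complex, 0.26 for SAS, 0.07 for NuA3 and 0.30 for Hda1, and the Rpd3 core, the SAGA acetyltransferase module and Set3 stood at 0.31, 0.24 and -0.07. Subunits of the same complex often stood on opposite sides of 0, as they did in SAGA, NuA4, SAS, Hda1 and Set3. With the dimmest 40% of probe sets removed, the Hda1 median was -0.17 and that of NuA3 -0.02, both with the sign changed. The SAGA acetyltransferase module also fell just below 0. Under that filter SAS stood at 0.46, the small Rpd3 complex at 0.19 and the HST genes at -0.26. HDA1, SAS4 and EAF3 were then the only tested genes of Hda1, SAS and the small Rpd3 complex.

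Further genes around these complexes were examined in the same fit. None of 25 tested further subunits and partners, of 8 bromodomain genes, whose products bind acetylated lysine, or of 10 DNA-binding factors that bring Tup1-Cyc8 was called with all arrays. Their medians were 0.03, -0.17 and 0.09. At an unadjusted limma p under 0.05 the counts were 3, 2 and 0, where 22.2% of all tested genes passed. Without mutant array 1, 2 genes of each list were called, AHC2 (higher) and SUM1 (lower), BDF2 (higher) and RSC2 (lower), and MIG1 and RFX1 (both higher), against 20.9% of all tested genes. The medians were then 0.09, 0.06 and 0.31, the second with its sign changed.

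Lists of genes that these complexes are known to regulate did hold called genes, and these lists were drawn up with earlier results of these arrays known, so their counts are no independent evidence. The shares below stand beside 4.26% of all tested genes called with all arrays and 20.9% without mutant array 1. Of 19 tested genes listed as repressed by Tup1-Cyc8, 3 were higher and 1 lower (21.1% called), with a median of 0.03. Without mutant array 1 the counts were 6 and 2. Among them HUG1, a small protein of the DNA damage response, read 63.5, 69.7 and 75.9 in wild type and 169.1, 149.5 and 165.9 in the mutant, while FLO1, whose probe set shares probes with other genes by its name suffix, and FLO11 were the other higher genes and HO the lower one. Of 12 tested genes listed as repressed by Ume6, 2 were higher (16.7%), and 2 higher and 1 lower without mutant array 1. INO1, the inositol synthesis gene, read 13.7, 14.3 and 18.5 against 29.3, 51.9 and 48.1 (log2 1.26 ± 0.23, adjusted p = 0.0252), and POT1 was the other. These groups did not overlap.

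Of 10 tested genes listed as repressed by Sum1, Rfm1 and Hst1, 2 were higher and 1 lower (30% called), and 4 and 2 without mutant array 1. BNA2, which starts the synthesis of NAD from tryptophan, read 27.3, 30.2 and 35.6 in wild type and 73.4, 88.6 and 73.8 in the mutant (log2 1.25 ± 0.15, adjusted p = 0.00771). BNA6, a later enzyme of the same pathway, went the other way, from 266.6, 258.4 and 287.8 to 174.6, 171.0 and 162.5 (log2 -0.67 ± 0.10, adjusted p = 0.0164). SPS100, a spore wall gene, was the third called gene, so members of a list with a common repressor differed in direction. Of 14 tested genes that need SAGA for full activation, 4 were higher and none lower (28.6%), with a median of 0.42. Without mutant array 1, 9 were higher and none lower, with a median of 0.53. The 4 called with all arrays were the acid phosphatase gene PHO5 (2.12-fold), ADH2 (1.99-fold), the histidine synthesis gene HIS3 (1.55-fold) and the arginine synthesis gene ARG1 (1.46-fold). Over the main setting and its 17 alternatives, HUG1 and PHO5 were called in all 18 and FLO1 in 17. BNA2 and ADH2 were called in 15, POT1 in 14, HO in 13, and INO1, SPS100 and BNA6 in 12. HIS3 was called in 10, and FLO11 and ARG1 in 9.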

How the data were processed

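Each deposited value is the intensity of 1 probe set on 1 array, on a linear scale. MAS5 is named in the submitters' processing notes, without a version. On the mutant arrays every deposited intensity, divided by 0.1 of an array-wide factor, came out whole (within 0.001), so the authors' values there carry that factor, 0.922, 1.09 and 1.11 on arrays 1, 2 and 3. The largest ratio of trimmed means (2% trimmed) between arrays was 1.1995, within the limit of 1.2 set for rescaling, so values were used as deposited.

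The 9335 probe sets include 60 controls, left out. Of the others, 6504 had 1 gene, 328 several and 2443 none. An offset of 3.605, 0.1 of the median of the array medians, was added before log2, and the dimmest 20% of probe sets by mean signal were removed, which kept 7420. Each gene was taken from its brightest probe set, giving 5380 genes. Symbols came from RefSeq R64. Differences were fitted with limma 3.58.1 in R 4.3.3 (eBayes with an intensity trend, two-sided, 4 residual degrees of freedom). The fit was also run on simulated data with the same noise for every probe set and array. Such data cannot show how the fit handles a deviating array or a spread that differs between genes. Exact permutation of 6 arrays in groups of 3 has a smallest two-sided p of 0.1, so no such test was run for single genes. The labels do not state whether replicate numbers pair the arrays, and the main fit did not pair them. Alternatives changed the scaling, offset, filter, probe set rule, variance model and replicate block, and left out each array.

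The members and lists were chosen with earlier results of these data known. Members given with every array's value are the enzymes, TUP1, CYC8, up to 12 members with the largest difference among those with separated groups, members not tested and those with disagreeing probe sets; the lowest and highest of each complex are named. The array values of SPT3, YNG2, SGF11, NTO1, ASH1, RCO1, HDA2 and SET3, and the names of the remaining members, were added after values were seen. No source used here names a genome build for the array, so no coordinates are printed.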

Additional observations from a re-analysis of the deposited data

How the results depend on the processing

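No member was called with all arrays under an offset of 1 or 16, no filter, the mean of probe sets, without shared probe sets, without the intensity trend or with a replicate block. Called genes in these settings numbered from 24 with the replicate block to 250 with an offset of 16, of 5175 to 5656 tested. A filter of 40% left 41 members, without HOS3, and none of these was called, where 205 of 4464 tested genes were. The number called was 1 with quantile normalization (HOS3), 1 with a common median (HOS3) and 2 with the constants divided out (HOS3 and SPT8), where 6.84%, 6.65% and 6.47% of all tested genes were called. Leaving out 1 array gave between 0 and 5 called members. The 5 came without mutant array 1, where 1124 of 5380 tested genes (20.9%) were called. Without any other single array, 0 members and between 22 and 65 of 5380 tested genes were called. The median over members was -0.09 with a common median, where that of all tested genes was -0.06. Same-numbered arrays deviated from their group means with correlations of -0.144, 0.062 and -0.014, and differently numbered arrays with -0.238 to 0.23. Deviations from a mean of 3 arrays are tied to each other, so these values cannot decide whether the numbers pair the arrays. The replicate block called 24 genes in all, against 229 without it, and 0 members. That fit also has fewer residual degrees of freedom than the 4 of the main fit.

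The sign of 6 members turned under a scaling. Quantile normalization gave EAF6 -0.077, ELP3 -0.041, SGF73 -0.0086 and UME1 -0.15. A common median gave EAF6 -0.038, ELP3 -0.086, PHO23 -0.073, RXT2 -0.056, SGF73 -0.043 and UME1 -0.085. Division by the constants gave ELP3 -0.039, PHO23 -0.025, RXT2 -0.0066 and UME1 -0.040. An offset of 1 gave UME1 -0.0025, and the mean of probe sets gave TRA1 0.031. With 1 array left out, 21 members took both signs: CTI6 (-0.029 to 0.026), EAF5 (-0.11 to 0.092), EAF6 (-0.036 to 0.13), ELP3 (-0.049 to 0.095), GCN5 (-0.12 to 0.33), HAT1 (-0.27 to 0.27), HOS4 (-0.0007 to 0.43), NTO1 (-0.18 to 0.51), PHO23 (-0.029 to 0.092), RXT2 (-0.052 to 0.10), SAS3 (-0.64 to 0.0087), SET3 (-0.011 to 0.58), SGF73 (-0.016 to 0.13), SIF2 (-0.084 to 0.054), SPT20 (-0.38 to 0.11), SPT7 (-0.31 to 0.24), TUP1 (-0.31 to 0.13), UBP8 (-0.082 to 0.032), UME1 (-0.20 to 0.31), UME6 (-0.37 to 0.028) and YNG1 (-0.24 to 0.12). For the other 36 members, 19 above and 17 below 0, the sign held under every scaling and every left-out array. The cause of these shifts was not tested.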
